A study of Mus musculus with 9 samples.

Results

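Already open chromatin that became more accessible with either hairpin against Med4 was examined in D2A1-d, a cell line from a mouse breast carcinoma. The regions, chosen by the measured values of all 9 libraries, are the 1907 peaks, of 146734 in the series, whose mean over the 3 control libraries was at least 100 normalised reads and whose means over the 3 libraries of each hairpin were both at least 2 times that control mean. They are 1.86% of the 102635 peaks that reached 100 in the control, which are called open peaks below. Of all tested peaks 4.07% had both hairpin means at 2 times the control. The assay was ATAC-seq, in which a transposase cuts accessible DNA and attaches sequencing adapters, so that the reads in a peak report how open the stretch was. There were 3 groups of 3 libraries each, and all 9 come from the same cell line. The control cells (NTC, labelled wild type) were transduced with a non-targeting control, and the other groups, labelled Med4 knockdown, with a short hairpin RNA against Med4, called #1 and #4. No further treatment is labelled. The labels number the libraries of a group as biological replicates but do not say whether each was a transduction of its own, so p-values measure only the spread between these libraries. Since a hairpin works on the messenger RNA, ATAC-seq gives no check of how far Med4 was depleted.

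MED4 is part of Mediator, in its middle module, and Mediator carries signals from transcription factors at enhancers to RNA polymerase II at promoters. Open chromatin marks promoters and enhancers. At a closed site nucleosomes cover the DNA, while an open site is kept clear by bound factors and remodelling enzymes, and its accessibility can rise further when more factor binds or more cells of the culture use the site. The study's title places MED4 in metastatic dormancy, a state in which disseminated tumour cells persist without growing out. The regions described here are those that control cells already had open.

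Between 44.8 and 98.9 M reads per library fell in peaks, and a member held a median of 170 to 221 reads in an NTC library and 298 to 714 in a shMed4 library. No 2 libraries agreed within sampling noise (chi-square per degree of freedom 1.99 to 2.92 within groups and 9.96 to 29.1 between groups), so all 9 were kept. The labelled cell type was read at gene-end peaks of marker genes in NTC. Of 12 breast epithelial markers 4 had such a peak and 3 reached 100 normalised reads, with a summed level of 698 to 752 per library. Krt8, Epcam and Cdh1 had none. The gene-end peak of Krt18 is itself a member, and the others found are not. Their folds over NTC were 1.88 with #1 and 1.59 with #4 at Krt14 and 0.60 with #1 and 0.83 with #4 at Cldn7. At Elf5 the fold was 0.82 with each hairpin. Of 9 mesenchymal markers 8 had a peak and 6 reached 1000, with Vim at 4155 on average. Of 10 immune markers 5 reached 100, of 6 endothelial markers 1 and of 6 neural markers 1, with none at 1000. Summed levels per library were 13470 to 14573 for mesenchymal and 1948 to 2074 for immune markers, both above the epithelial sum. Those of endothelial and neural markers were 231 to 250 and 324.5 to 341. The epithelial markers were thus mostly absent from the open gene ends of this carcinoma line.

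The promoters that are themselves members can be shown with their sequence. A promoter window here covers 250 bases before to 50 after a start site in RefSeq (GRCm38.p6), and 58 members lay over such a window (3.04%, against 8.85% of open peaks). Below an NTC mean of 300 the order was the other way, with 3.2% of members and 1.89% of open peaks over a window. The 250 bases upstream of 4 of them, all outside annotated genes, are printed to show how CpG content varied among raised promoters. They read 5′ to 3′ on the gene's strand, and capitals mark CpG dinucleotides. Ifitm6 belongs to the interferon-induced transmembrane gene family, Krt18 encodes a keratin of simple epithelia, Dusp2 a phosphatase that switches off MAP kinases, and Tesmin a protein of the testis.
Ifitm6: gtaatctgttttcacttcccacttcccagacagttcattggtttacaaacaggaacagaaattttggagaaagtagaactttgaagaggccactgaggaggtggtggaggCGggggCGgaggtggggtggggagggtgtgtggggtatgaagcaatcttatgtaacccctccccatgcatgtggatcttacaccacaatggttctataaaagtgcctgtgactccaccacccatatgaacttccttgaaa
Tesmin: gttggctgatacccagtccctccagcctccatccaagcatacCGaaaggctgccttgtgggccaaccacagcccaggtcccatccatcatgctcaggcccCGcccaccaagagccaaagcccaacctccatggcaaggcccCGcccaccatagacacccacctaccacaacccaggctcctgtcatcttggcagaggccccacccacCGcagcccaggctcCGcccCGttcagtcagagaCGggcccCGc
Krt18: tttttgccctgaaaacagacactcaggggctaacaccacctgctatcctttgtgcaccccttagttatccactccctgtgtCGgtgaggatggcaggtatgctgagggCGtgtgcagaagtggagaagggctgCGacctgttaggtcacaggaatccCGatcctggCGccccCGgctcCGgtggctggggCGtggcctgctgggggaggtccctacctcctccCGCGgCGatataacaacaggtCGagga
Dusp2: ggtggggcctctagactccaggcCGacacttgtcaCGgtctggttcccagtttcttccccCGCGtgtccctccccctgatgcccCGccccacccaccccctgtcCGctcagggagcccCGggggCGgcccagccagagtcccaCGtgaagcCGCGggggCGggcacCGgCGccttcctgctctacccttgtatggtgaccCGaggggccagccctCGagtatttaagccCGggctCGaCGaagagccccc

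The Ifitm6 sequence (chromosome 7, 141016893 to 141017142) holds 2 CpG and 48.4% G and C. The peak over it, at chromosome 7, 141016575 to 141017076, held 139.6, 91.4 and 108 normalised reads in NTC, 564, 504 and 465 with #1 and 515, 499 and 449.8 with #4. The Tesmin sequence (chromosome 19, 3388607 to 3388856) holds 8 CpG, and its peak held 85.6, 126 and 110.4 normalised reads in NTC, 588, 582 and 607 with #1 and 672, 647 and 725 with #4. The Krt18 sequence (chromosome 15, 102027966 to 102028215) holds 12 CpG. Its peak is the weakest riser of the 4, with 170.3, 162 and 159.5 normalised reads in NTC, 379, 347 and 378 with #1 and 438, 448 and 509.8 with #4. The Dusp2 sequence (chromosome 2, 127335909 to 127336158) holds 19 CpG and 70.4% G and C, and its peak held 120.3, 131 and 99 normalised reads in NTC, 486, 502 and 541 with #1 and 552, 558 and 524 with #4. At each of these 4 promoters the 6 shMed4 libraries were all above the 3 NTC libraries, which the choice of members makes likely. The folds were 4.52-fold with #1 and 4.32-fold with #4 at Ifitm6, 5.51-fold with #1 and 6.34-fold with #4 at Tesmin, 2.24-fold with #1 and 2.84-fold with #4 at Krt18 and 4.36-fold with #1 and 4.66-fold with #4 at Dusp2. So CpG-poor and CpG-rich promoters both occurred among the members. Over all 58 promoter windows under members the median was 7.5 CpG per 300 bases, against 21 in the 9049 windows under open peaks and 7 in those under open peaks with an NTC mean below 300.

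The members were modest sites in control cells. Their NTC means ran from 100.01 to 2004 normalised reads with a median of 176, whereas open peaks had library medians of 337 to 341 in NTC. With hairpin #1 the members' means had a median of 555 and with hairpin #4 of 538. By library, their medians were 175 to 178 in NTC, 538 to 571 with #1 and 526 to 558 with #4, while the library medians of open peaks stayed between 337 and 363 in all 9. The rule set these differences, so they are given as a description without a test. In bulk samples like these, more cells with a site open and more openness per cell cannot be told apart.

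Most rises were near the minimum. The fold over NTC had a median of 2.78 with #1 and 2.72 with #4. The smaller of a peak's pair of folds had a median of 2.49, reached 3 in 522 members (27.4%), 4 in 202, 5 in 79, 8 in 7 and 10 in 1. The lowest shMed4 library was above the highest NTC library in all 1907 members, and at least 1.5 times it in 1899. The rule makes such a separation likely, and its share over all open peaks was not counted. Across the 3 libraries of a group the median coefficient of variation of a member was 7.83% in NTC, 5.18% with #1 and 6.10% with #4, against 5.50%, 5.87% and 7.22% over open peaks. Among peaks with an NTC mean below 300, where counts are comparably low, it was 8.64% for members and 8.48% for open peaks in NTC.

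At the fold minimum the nearest members were peaks assigned to Tnks, Thsd1 and Cd207, and the nearest peaks left out were assigned to Epb41 and Mecom, with another outside any named gene. The Tnks peak, in a tankyrase gene, had 297 to 316 normalised reads in NTC, 770.2 to 919 with #1 and 593 to 633 with #4, and the Epb41 peak 155 to 193 normalised reads in NTC, 329 to 341 with #1 and 414 to 492 with #4. The nearest members at the NTC minimum were peaks of Tecta, Nrp1 and Piezo2, and the nearest left out were those of Cxadr, Abca1 and Kirrel3. Cxadr, which encodes a junction protein that coxsackie and adenoviruses use to enter cells, had 73.6 to 118 normalised reads in NTC, 454 to 533 with #1 and 464 to 543 with #4, a rise within the range of the members.

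The strongest member lay inside Golt1b, a Golgi vesicle transport gene, 216 bp from the end of the neighbouring gene Spx, which encodes a neuropeptide, and cannot be assigned to either. It lay over a promoter window. The peak, at chromosome 6, 142412922 to 142413423, held 143, 139 and 149 normalised reads in NTC, 1547, 1491 and 1417 with #1 and 1739.6, 1654 and 1707 with #4. The NTC libraries lay close together and far below the others, and hairpin #4 was above hairpin #1 in every library. The mean rose 10.4-fold with #1 and 11.9-fold with #4. The log2 difference between the hairpins (#4 minus #1) was 0.20 (SE 0.064, limma adjusted p = 0.0129), and it was not called without replicate 3 of #1 (0.16, adjusted p = 0.0793).

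Galnt2, an enzyme that starts mucin-type O-glycosylation, had its member at chromosome 8, 124284211 to 124284712, with 189, 170.5 and 137 normalised reads in NTC, 1678, 1553 and 1440.3 with #1 and 1523, 1423 and 1450.0 with #4. Rad51b, a gene of homologous recombination, had 136, 105 and 160.4 normalised reads in NTC, 1194, 1107 and 1156 with #1 and 1274, 1308 and 1261 with #4 at chromosome 12, 79302996 to 79303497. Ptpro, a receptor tyrosine phosphatase gene, had 178, 168 and 191 normalised reads in NTC, 1585, 1575 and 1444 with #1 and 1757, 1714 and 1667 with #4 at chromosome 6, 137388323 to 137388824. These 3 sites lay inside their genes, 5.96 to 76.1 kb from a gene end, and their hairpin groups overlapped at Galnt2 only. The log2 difference of #4 minus #1 was -0.09 (SE 0.08, limma adjusted p = 0.416) at Galnt2, 0.15 (SE 0.089, limma adjusted p = 0.173) at Rad51b and 0.16 (SE 0.064, limma adjusted p = 0.0449) at Ptpro. In a fit of the 6 shMed4 libraries alone Rad51b was called too (0.15, limma adjusted p = 0.039). At Ptpro the call was lost on leaving out any replicate of #1 or replicate 1 or 2 of #4 (0.12 to 0.18).

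Rbms3, an RNA-binding protein gene, held 109, 129 and 126 normalised reads in NTC, 1318, 1183 and 1148 with #1 and 1135, 989 and 998 with #4 at chromosome 9, 116590719 to 116591220. Dhcr7, which catalyses the last step of cholesterol synthesis, held 178, 178 and 163 normalised reads in NTC, 1692, 1589 and 1685 with #1 and 1504, 1459 and 1416 with #4 at chromosome 7, 143832000 to 143832501. In both, hairpin #1 gave the higher values without overlap, with log2 differences of -0.22 (SE 0.078, limma adjusted p = 0.0196) and -0.18 (SE 0.064, limma adjusted p = 0.0208). The Rbms3 call was lost without replicate 1 of #1 or replicates 2 or 3 of #4 (-0.20 to -0.17), and the Dhcr7 call without replicates 1 or 3 of #1 or replicate 3 of #4 (-0.17 to -0.16), and both with equal library totals (-0.19 and -0.15). Mmp2, the gelatinase that degrades basement membrane collagen, had 129.9, 80.1 and 124 normalised reads in NTC, 974, 873 and 937 with #1 and 954, 955 and 903 with #4 at chromosome 8, 92847333 to 92847834, and the hairpins overlapped (log2 difference 0.02 (SE 0.1, limma adjusted p = 0.922)). Tgfbr3 encodes betaglycan, the co-receptor for TGF-beta, and its member held 144, 142 and 110.4 normalised reads in NTC, 1101, 1061 and 943 with #1 and 1157, 1053 and 961 with #4. Foxp1, a forkhead repressor, had 116, 125 and 95.7 normalised reads in NTC, 964, 1046 and 997 with #1 and 845, 904 and 885 with #4, and Elavl2, a neuronal RNA-binding protein, had 111, 123 and 141 normalised reads in NTC, 973, 957 and 991 with #1 and 1107, 1063 and 1041 with #4. The log2 difference at Foxp1 was -0.19 (SE 0.083, limma adjusted p = 0.0631), and it was called without replicate 2 or 3 of NTC, with the replicate block and with the 6 shMed4 libraries alone (-0.19 in each). These last 3 sites lay 18.1 to 94.1 kb from a gene end, though that of Elavl2 lay over a promoter window.

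**Figure D1:**
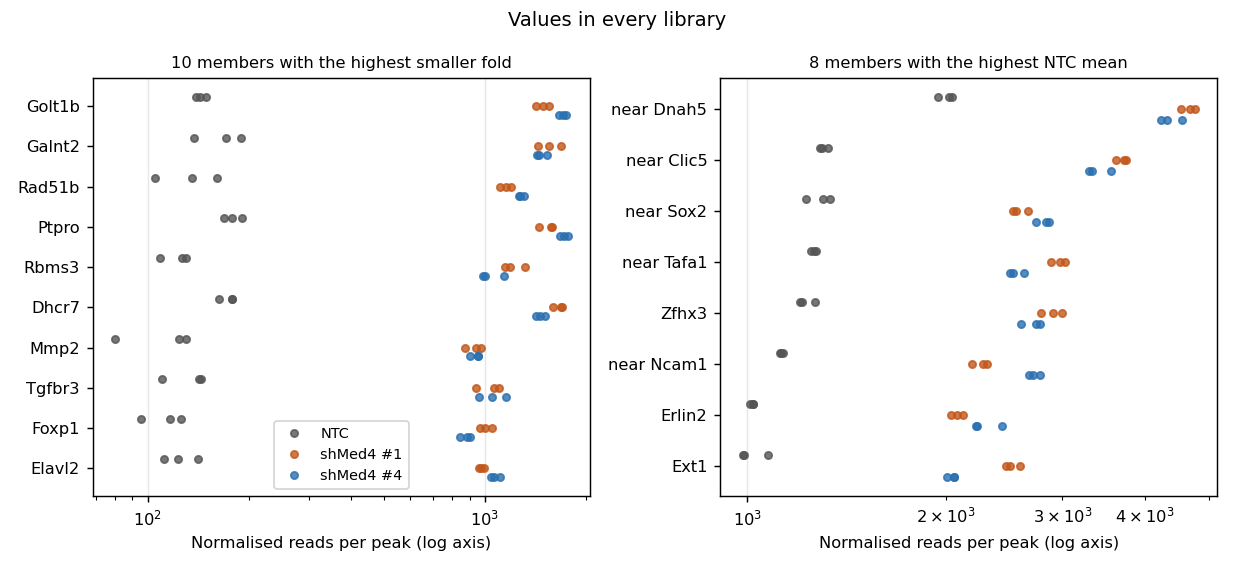
Normalised reads per peak (log axis) in each of the 9 libraries for the 10 members with the highest smaller fold (left) and the 8 with the highest NTC mean (right), with grey points for NTC, orange for shMed4 #1 and blue for shMed4 #4. On the left the NTC libraries lie at 80.1 to 191 and the shMed4 libraries at 845 to 1757, while on the right the smaller fold runs from 2.00 near Ncam1 to 2.60 near Clic5.

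At the other end were members that control cells had wide open. The tallest, 21.4 kb outside Dnah5, a dynein heavy chain gene of cilia, at chromosome 15, 28133238 to 28133739, held 1945, 2045 and 2022 normalised reads in NTC, 4762, 4535 and 4681 with #1 and 4322, 4224 and 4559.8 with #4. The next lay 47.4 kb from Clic5, a chloride intracellular channel gene, with 1324, 1289 and 1295 normalised reads in NTC, 3746, 3614 and 3715 with #1 and 3286, 3325 and 3553 with #4. The third, 91.3 kb from Sox2, the pluripotency factor gene, held 1335, 1300.1 and 1226 normalised reads in NTC, 2555, 2666 and 2522 with #1 and 2859.8, 2739 and 2836 with #4. No shMed4 library came near the NTC values at these 3 sites. The folds over NTC were 2.32-fold with #1 and 2.18-fold with #4 near Dnah5, 2.83-fold with #1 and 2.60-fold with #4 near Clic5 and 2.00-fold with #1 and 2.18-fold with #4 near Sox2.

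The peak near Tafa1, which encodes a secreted chemokine-like protein of the brain, had 1250.2, 1269 and 1262 normalised reads in NTC, 2879, 3028 and 2976 with #1 and 2524, 2495 and 2628 with #4. Zfhx3, a large homeobox and zinc finger gene, held 1211, 1204 and 1265 normalised reads in NTC, 2994, 2786 and 2899 with #1 and 2771, 2598 and 2738 with #4 at a site 206 kb from its ends. Near Ncam1, a neural adhesion molecule gene, the values were 1122, 1125 and 1134 normalised reads in NTC, 2309, 2189 and 2272 with #1 and 2778, 2672 and 2704 with #4. Erlin2, of the endoplasmic reticulum, and Ext1, the heparan sulfate polymerase, completed the 8 tallest with 1008 to 1021 normalised reads in NTC, 2038 to 2120.3 with #1 and 2219 to 2434 with #4 and 984 to 1074 normalised reads in NTC, 2467 to 2587 with #1 and 2004 to 2054 with #4. Of the 8, the hairpins differed by limma at Clic5, Sox2, Tafa1, Ncam1, Erlin2 and Ext1. The largest of those differences was at Ext1, where #1 was higher, at -0.31 (SE 0.051, limma adjusted p = 7.78e-06), followed by Ncam1, where #4 was higher, at 0.27 (SE 0.049, limma adjusted p = 2.75e-05). The call at Clic5 was lost without replicates 1 or 3 of #1 or 1 or 2 of #4 (-0.12 to -0.10), with equal totals (-0.09) and with the 6 shMed4 libraries alone (limma adjusted p = 0.0569). That at Sox2 was lost without replicates 1 or 3 of #1, 1 or 3 of #4 or 2 or 3 of NTC (0.11 to 0.12) or with the 6 shMed4 libraries alone (limma adjusted p = 0.0607), and that at Erlin2 without replicates 1 or 2 of #1 or 3 of #4 (0.10 to 0.14). Near Dnah5 a call was gained without replicate 3 of #4 (-0.12).

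Gene ends were the minority among members, and the strongest of them covered genes of unrelated function. Supt3, which encodes a subunit of the SAGA coactivator, had a member 248 bp from its end, at chromosome 17, 45119292 to 45119793, with 123, 127 and 98.2 normalised reads in NTC, 931, 899.6 and 854 with #1 and 811, 784 and 796 with #4. Pkp1, a plakophilin of desmosomes, had one with its centre 30 bp outside the gene, at chromosome 1, 135918987 to 135919488, with 125, 89.3 and 93.3 normalised reads in NTC, 571, 507 and 652 with #1 and 522, 655 and 556 with #4. The peak shared by Tppp3, a tubulin polymerisation gene, and Zdhhc1, a palmitoyltransferase gene, had 113, 133 and 123 normalised reads in NTC, 629, 669 and 656 with #1 and 631, 572 and 693 with #4. The NTC libraries were at 89.3 to 133 in all 3, and the hairpins overlapped at Pkp1 and Tppp3 but not at Supt3, where #1 was higher in every library. Zfp141, a zinc finger gene, held 111, 108 and 89.2 normalised reads in NTC, 505, 502 and 538 with #1 and 565, 462 and 580.3 with #4, and Mill2, an MHC class I-like gene, held 108, 128 and 101 normalised reads in NTC, 707, 698 and 699.8 with #1 and 595, 533 and 539.8 with #4. Among these only Mill2 differed between the hairpins by limma, with #1 higher, at -0.34 (SE 0.089, limma adjusted p = 0.0023).

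The direction of the difference between hairpins was not set by the rule, which asks only that each passes 2-fold, so it was tested. By limma, 400 members (21%) were called higher with #4 and 568 (29.8%) higher with #1, against 20.4% and 21.2% of all tested peaks, where 41.6% were called in either direction. The remaining 939 members (49.2%) were not called. All tested peaks include those below the NTC minimum, and their median SE was 0.121 against 0.090 over open peaks. At an NTC mean of 100 to 150 normalised reads 46.7% of members and 35.4% of all open peaks were called. The shares were 53.7% and 40.9% at 150 to 200, and 54.3% and 45.7% at 200 to 300. At 300 to 500 they were 51.8% and 51.5%, and at 500 to 1000 50% and 55.5%. Over 1000, with 11 members, they were 54.5% and 45.6%. Members hold more reads with the hairpins than other peaks of the same NTC height, and the part of that depth in these shares was not tested. The size of the difference is limited by the rule, which leaves out peaks that only 1 hairpin raised past 2-fold. Within that limit, the larger hairpin mean was at least 1.5 times the smaller in 169 members (8.86%) and at least 2 times in 20. The median log2 difference of #4 minus #1 over members was -0.04, from -0.56 at the fifth percentile to 0.54 at the 95th, with a median SE of 0.087. Over open peaks the median was -0.02, with the same percentiles at -0.61 and 0.66.

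**Figure D2:**
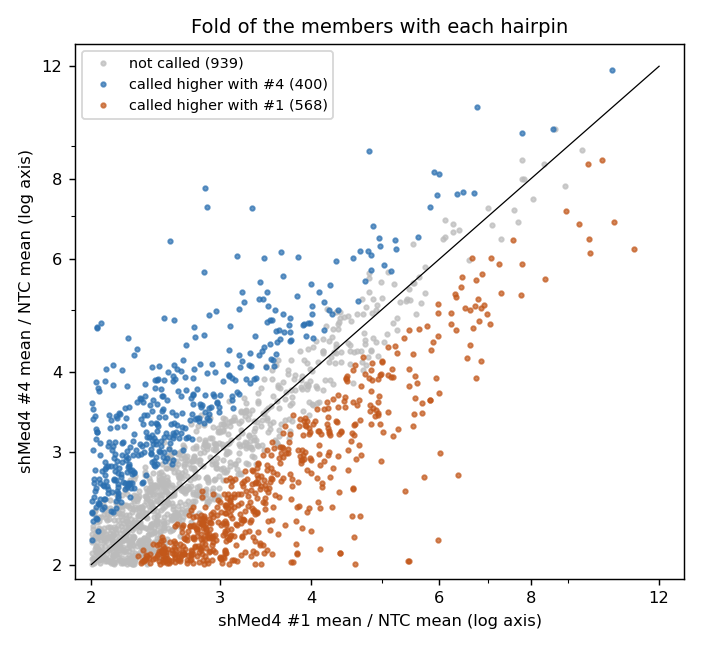
Fold over the NTC mean with hairpin #4 against that with hairpin #1 for the 1907 members (log axes), coloured by the limma call between the hairpins, with the line of equal fold. Points spread on both sides of the line, with 400 called higher with #4, 568 called higher with #1 and 939 not called.

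At the 10 members where the hairpins parted most, the smaller fold ran from 2.01 near Mrpl52 to 2.88 in Gna14 and the larger from 4.60 near Mrpl52 to 7.74 in Clnk. Clnk, an adaptor gene of immune cell signalling, had a member at chromosome 5, 38729079 to 38729580 with 151, 143 and 142 normalised reads in NTC, 427, 414 and 407 with #1 and 1067, 1230.3 and 1076 with #4. Gna14, a G protein subunit gene, had 123, 97.6 and 109.6 normalised reads in NTC, 358, 324 and 272 with #1 and 823, 744 and 829 with #4 at chromosome 19, 16562483 to 16562984. Near Lima1, which encodes the actin-bundling protein EPLIN, the values were 165, 177 and 182 normalised reads in NTC, 469, 467 and 408 with #1 and 1101, 1065 and 1191 with #4. The #4 libraries lay above the #1 libraries without overlap at all 3, with log2 differences of 1.43 (SE 0.08, limma adjusted p = 8.36e-17) at Clnk, 1.33 (SE 0.1, limma adjusted p = 2.9e-13) at Gna14 and 1.32 (SE 0.079, limma adjusted p = 5.89e-16) at Lima1. Tecta, of the inner ear matrix, and Ctnna2, the neural alpha-catenin, followed with 1.20 each.

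In the other direction, the member 37.3 kb outside Mllt3, a transcription elongation gene, had 128, 113 and 110.4 normalised reads in NTC, 705, 719.5 and 673 with #1 and 285, 234 and 247 with #4 at chromosome 4, 87732345 to 87732846. Hipk2, a nuclear kinase gene of the p53 and Wnt pathways, had 207, 189 and 177 normalised reads in NTC, 1070.0, 1082 and 961 with #1 and 448, 357 and 356 with #4. Col4a3, a basement membrane collagen gene, held 113, 108 and 94.1 normalised reads in NTC, 567, 578 and 569 with #1 and 219, 224 and 196 with #4 at chromosome 1, 82597170 to 82597671. Here hairpin #1 was the higher at every library. The log2 differences were -1.45 (SE 0.098, limma adjusted p = 1.14e-14), -1.43 (SE 0.088, limma adjusted p = 1.08e-15) and -1.42 (SE 0.1, limma adjusted p = 9.39e-14). Tafa5 and Mrpl52, which encodes a mitochondrial ribosomal protein, followed, each at -1.20. The Mrpl52 peak, 1.08 kb from the gene, was the tallest of these 10 in NTC, with 352 to 404 normalised reads in NTC, 1679 to 1831 with #1 and 736 to 789.8 with #4.

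Members thinned out as control height rose. They made up 3.52% of peaks with an NTC mean of 100 to 150, 3.26% at 150 to 200, 2.79% at 200 to 300, 1.78% at 300 to 500, 0.554% at 500 to 1000 and 0.0472% (11 of 23319) over 1000. Height is part of the rule, so any feature that goes with height has to be read at equal height. The median log2 change of all peaks was near 0 at every height, from -0.08 to -0.01 with #1 and -0.09 to -0.05 with #4.

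Few members were at gene ends. A peak counts as gene-end when no more than 1 kb parts its centre from the start or end of a protein-coding gene. Of the members 104 (5.45%) were gene-end peaks, against 13.8% of open peaks. At equal height the gap was narrower: below an NTC mean of 300, 5.48% of members and 6.56% of open peaks were at gene ends. The median distance to a gene end was 24.7 kb for members and 14.7 kb for open peaks, and below 300 the medians were 24.6 and 18.3 kb. Inside a protein-coding gene were 1148 members (60.2%) against 53.1% of open peaks, and below 300 these shares were 59.4% and 53.1%. More than 100 kb from any gene end were 323 members (16.9%), against 12.5% of open peaks, and below 300 these shares were 17.2% and 14.2%. The share of open peaks that were members was 0.732% within 1 kb, 1.49% at 1 to 5 kb, 1.76% at 5 to 20 kb, 2.23% at 20 to 50 kb, 2.61% at 50 to 100 kb and 2.52% beyond. The spacing of peaks was alike, with the nearest other peak a median of 2.90 kb from a member and 2.71 kb from an open peak.

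**Figure D3:**
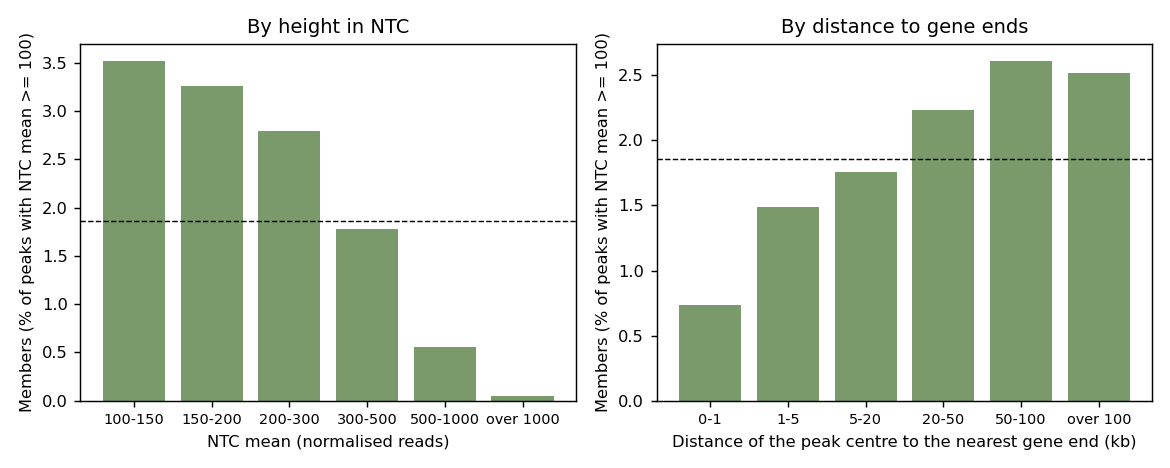
Members as a percentage of peaks with an NTC mean of at least 100, by NTC mean in normalised reads (left) and by distance of the peak centre to the nearest gene end in kb (right), with a dashed line at the 1.86% of all such peaks. The share falls from 3.52% to 0.0472% with height and rises from 0.732% at gene ends to 2.61% at 50 to 100 kb.

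Short motifs were counted in the 58 promoter windows under members. The letters were searched on both strands, and a match is not a binding site. The AP-1 motif (TGACTCA or TGAGTCA) was in 7 of 58 windows (12.1%), against 6.14% under open peaks, 11.4% under open peaks below 300 and 5.22% of all promoter windows. The ETS letters CCGGAA were in 10.3% against 28.2%, 10.2% and 15% in the same order, and the KLF/SP letters GGGCGG in 36.2% against 63.5%, 33.6% and 35.9%. RUNX letters (TGTGGT) were in 20.7% against 13.6% and 19.9% of the windows below 300, and SOX letters (ACAAAG) in 24.1% against 13.8% and 20.8%. TEAD letters (GGAATG) were in 12.1%, NFI letters (TTGGC) in 46.6%, E-box letters (CAGCTG or CACCTG) in 31%, GATA letters (AGATAA) in 10.3% and FOX letters (TGTTTAC) in 3.45%. For these the windows under open peaks had 12.6%, 51.2%, 28.9%, 5.88% and 2.77%, and those below 300 had 16.5%, 47.4%, 37.1%, 11.2% and 4.48%. CRE (TGACGTCA), p53 (GGGCATG), NF-kB and SRF motifs were in 0 to 2 windows each. The AP-1, ETS, KLF/SP, RUNX, SOX, NFI and GATA shares lay nearer to those of windows below 300, and the TEAD, E-box and FOX shares nearer to those of all open peaks. With 58 windows they are imprecise, and motifs in the other members were not analysed here.

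Members lay on every chromosome, in unequal shares. On chromosome 6 they were 197 of 5775 open peaks (3.41%), on chromosome 1 178 of 6776 (2.63%) and on chromosome 8 150 of 6282 (2.39%). The lowest shares were on chromosome 2, with 79 of 8714 (0.907%), and chromosome X, with 20 of 1634 (1.22%). On chromosomes 6 and 2 the open peaks as a whole were shifted too. Their median log2 change was 0.06 with each hairpin on chromosome 6 and -0.32 with #1 and -0.19 with #4 on chromosome 2. The order did not follow such shifts throughout. On chromosome X the medians were 0.001 with #1 and -0.05 with #4. On chromosome 12, with 1.4% members, they were -0.26 with #1 and -0.19 with #4. Centred on each chromosome's own median, a step chosen after seeing the data, the rule gave 1883 peaks, 1724 of them members. Of 247 windows of 10 Mb with at least 100 open peaks, 243 held a member and the median share was 1.7%. The richest was chromosome 1 from 20 to 30 Mb, with 8 of 101 (7.92%), then chromosome 12 from 90 to 100 Mb, with 13 of 169 (7.69%).

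**Figure D4:**
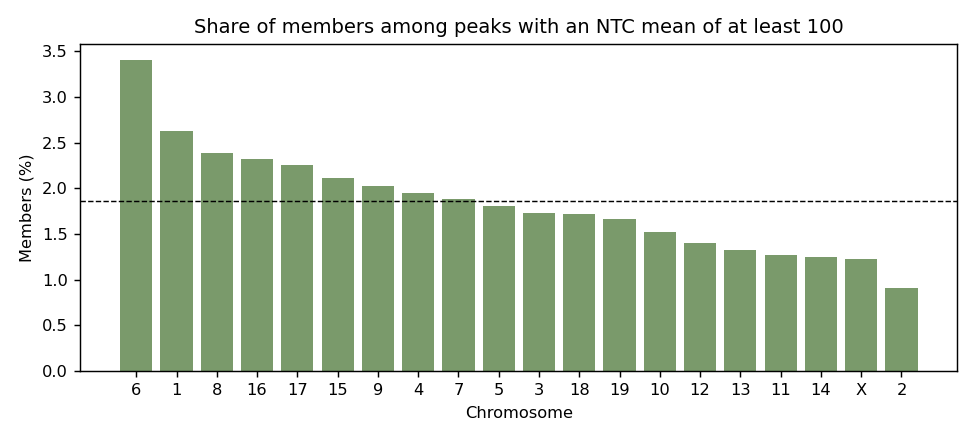
Members as a percentage of the open peaks of each chromosome, in order, with a dashed line at the 1.86% of all open peaks. Chromosome 6 stands highest at 3.41% and chromosome 2 lowest at 0.907%.

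A peak was assigned to the gene it lies in or else to the nearest within 100 kb, which is a convention and not a measured target. By it 1304 genes held a member, 1044 of them just 1, and 193 members had no gene within 100 kb. Dgki, a diacylglycerol kinase gene, and Scube3, which encodes a secreted protein of the cell surface, held the most, 7 each. Creb5, Tafa1, Dnah5 and Ncam1 held 6 each. Long genes have more peaks to count: Dgki spans 464 kb with 29 open peaks, while Scube3 spans 32.8 kb and 7 of its 11 were members. Of these 7, 2 lay inside Scube3 and the others up to 24335 bp outside it.

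The 4 Scube3 members nearest each other are consecutive peaks on chromosome 17, 28117515 to 28124844, a run of 7.33 kb outside the gene. They held 479 to 552 normalised reads in NTC, 1764 to 2091 with #1 and 1569.9 to 1769 with #4 at the first. At the next the values were 119 to 148 normalised reads in NTC, 310.3 to 360.2 with #1 and 296 to 359 with #4. The other 2 had 250.2 to 283 normalised reads in NTC, 1125 to 1193 with #1 and 1237 to 1260.3 with #4, and 462 to 467 normalised reads in NTC, 1898 to 1962 with #1 and 2105 to 2206 with #4. Folds over the run were 2.34 to 4.67. The hairpins differed by limma at the first, where #1 was higher (-0.19 (SE 0.064, limma adjusted p = 0.0171)), and the last, where #4 was higher (0.16 (SE 0.053, limma adjusted p = 0.0163)).

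Within Dgki, on chromosome 6, the strongest of the 7 was at 37085809 to 37086310, with 219.5, 216 and 205 normalised reads in NTC, 2033, 1999.6 and 1926 with #1 and 1426, 1513 and 1411 with #4, or 9.31-fold with #1 and 6.80-fold with #4. The weakest by its smaller fold, at 37082929 to 37083430, had 115 to 136 normalised reads in NTC, 371 to 429 with #1 and 245 to 308 with #4. Hairpin #1 was called higher at 4 of the 7 Dgki members, led by the one at 37255999 to 37256500 (-0.72 (SE 0.075, limma adjusted p = 6.46e-10)). Creb5, of the CRE-binding factors, split: at 53210034 to 53210535 hairpin #4 was higher (0.47 (SE 0.078, limma adjusted p = 5.2e-06)), and at 53497907 to 53498408 hairpin #1 was (-0.63 (SE 0.085, limma adjusted p = 1.44e-07)). Tafa1, Dnah5, Ncam1 and Scube3 also had members called in each direction. At Creb5 and those genes the order of the hairpins therefore differed between sites assigned to the same gene. The 4 calls of Dgki all had #1 higher. At Creb5 the called sites with #4 higher lay outside the gene and those with #1 higher inside. At Tafa1 and Dnah5 the called sites with #1 higher lay outside and those with #4 higher inside. Ncam1 had calls in each direction both inside and outside the gene, and Scube3 had both directions outside it. Position inside or outside the gene thus did not go with a fixed order of the hairpins.

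Most members stood alone. Along the order of peaks, 1639 had no member beside them, 104 runs were pairs, 17 were of 3 peaks, 1 of 4 and 1 of 5. The run of 5 lay within Epb41l4a, a gene of the FERM domain family, over 53 kb, with NTC means of 139 to 735 normalised reads and folds of 2.38 to 6.59. Runs of 3 included those in Fbxl7, an F-box gene, with folds of 3.32 to 8.84, in Mad1l1, a spindle checkpoint gene, with folds of 3.03 to 6.09, and 40652 to 70620 bp outside Pappa, with folds of 2.50 to 4.46.

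Many peaks beside members that did not meet the rule were also called higher. There were 2488 peaks next to a member within 10 kb, and 226 (9.08%) were members themselves, against 1.14% of peaks next to other open peaks. Of the 2262 that were not, 968 (42.8%) were called higher with both hairpins and 136 (6.01%) lower, where 17.6% and 13.5% of all tested peaks were. Next to open peaks that are not members these shares were 14.3% and 15.8%. The 2262 include 752 peaks below the NTC minimum, of which 259 were at least 2-fold higher with both hairpins, so some are sites that only the height minimum kept out.

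The rise fell off with distance. Peaks within 1 kb of a member had median log2 changes of 0.72 with #1 and 0.71 with #4, and 72.4% of 268 were called higher with both. At 1 to 2 kb 49.1% of 424 were, at 2 to 5 kb 36.9%, at 5 to 10 kb 30%, at 10 to 20 kb 25.4%, at 20 to 50 kb 21.0% and beyond 100 kb 15.0%, with medians there of -0.04 with each hairpin. Peaks are 501 bp wide and can abut, so neighbours within 1 kb can share DNA fragments, and the part of that in the result was not tested. All these comparisons share the same NTC libraries.

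**Figure D5:**
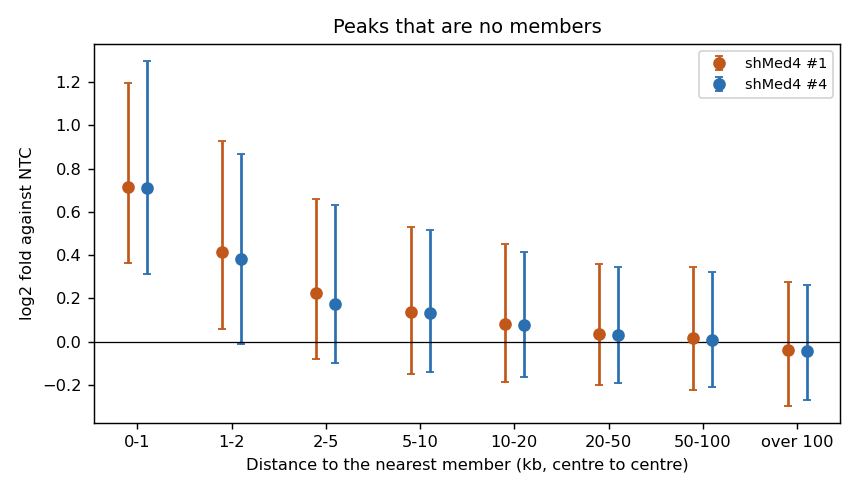
Median log2 fold against NTC (points, bars from the first to the third quartile of peaks) of peaks that are not members, by distance to the nearest member in kb, with orange for shMed4 #1 and blue for shMed4 #4. The medians fall from 0.72 and 0.71 within 1 kb to -0.04 beyond 100 kb.

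Gene lists were read by the share of their open peaks that were members, beside 1.82% over all 94381 open peaks assigned to a gene. These shares use the contrast of the rule, so they describe where members lie and carry no test. They were not matched for NTC height, with which the share of members falls, and the part of height in them was not tested. For reference, 14496 of those 94381 peaks were called higher with both hairpins and 16869 lower.

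Wnt ligands bind Frizzled receptors with LRP co-receptors and act through beta-catenin and TCF factors. Of 495 open peaks of Wnt pathway genes 21 were members (4.24%), in 15 of 47 genes, and 97 were called higher and 70 lower with both hairpins. Among ligands Wnt5b had 3 members, the strongest at chromosome 6, 119556021 to 119556522 with 146, 113 and 97.4 normalised reads in NTC, 495, 507 and 515 with #1 and 500.0, 473 and 533 with #4. Wnt10b had 126, 131 and 168 normalised reads in NTC, 568, 549 and 589.8 with #1 and 665, 668 and 820.2 with #4 at chromosome 15, 98780053 to 98780554, and Wnt4 138 to 177 normalised reads in NTC, 592 to 678 with #1 and 579 to 619 with #4. The Wnt5b hairpin groups overlapped, and at Wnt10b #4 was higher (0.33 (SE 0.095, limma adjusted p = 0.00522)).

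Among the receptors, Fzd7 had a pair of members 17132 and 17902 bp outside the gene. The one at chromosome 1, 59464765 to 59465266 held 287, 303 and 290.4 normalised reads in NTC, 627, 603 and 615 with #1 and 1177, 1205 and 1168 with #4, so hairpin #4 was far above #1 (0.94 (SE 0.066, limma adjusted p = 3.74e-14)). Lrp5 and Lrp6, the co-receptors, had 176 to 194 normalised reads in NTC, 494 to 507 with #1 and 390.1 to 437 with #4 and 116 to 185 normalised reads in NTC, 470.5 to 516 with #1 and 593 to 675 with #4, and the hairpins differed in opposite directions, with #1 higher at Lrp5 (-0.30 (SE 0.085, limma adjusted p = 0.00481)) and #4 higher at Lrp6 (0.37 (SE 0.1, limma adjusted p = 0.00411)). Ror1, a receptor for Wnt5a, had members of 2.33 and 2.95-fold with #1. Ctnnb1, which encodes beta-catenin, had a pair of members inside the gene, 636 and 1628 bp from its end. That nearer the end held 102, 114 and 89.2 normalised reads in NTC, 431, 406 and 402 with #1 and 391, 340.2 and 429 with #4, and the other 132, 155 and 133 normalised reads in NTC, 520.2, 504 and 548 with #1 and 647, 623 and 723 with #4. Lef1 and Tcf7, nuclear partners of beta-catenin, had 219.5, 202 and 186 normalised reads in NTC, 868, 838 and 893 with #1 and 902, 950.2 and 905 with #4 and 132 to 154 normalised reads in NTC, 403 to 419 with #1 and 298 to 395 with #4, and Tle3, their corepressor, had 411 to 441 normalised reads in NTC, 1282 to 1328 with #1 and 831 to 1045 with #4 inside the gene.

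IGF signalling supplied most members of the growth factor list, which had 25 members in 602 open peaks (4.15%), with 126 called higher and 83 lower with both hairpins. Igf1r, the receptor for insulin-like growth factors, had 5 members inside the gene. Pappa2 had 5 and Pappa 4, and these genes encode the pappalysins, proteases that free IGF from its binding proteins. The strongest by smaller fold in Igf1r, at chromosome 7, 68148508 to 68149009, held 216, 204 and 237 normalised reads in NTC, 956, 873 and 838 with #1 and 995, 960.5 and 975 with #4, and the hairpins were not called different (0.14 (SE 0.072, limma adjusted p = 0.126)). Another, at chromosome 7, 68085914 to 68086415, held 139.6, 120.1 and 155 normalised reads in NTC, 802, 778 and 772 with #1 and 480.1, 504 and 496 with #4, and there hairpin #1 was higher (-0.67 (SE 0.086, limma adjusted p = 6.19e-08)).

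The tallest Pappa2 member in NTC, at chromosome 1, 158732974 to 158733475, had 579.5, 641 and 583 normalised reads in NTC, 1939, 1874 and 1796 with #1 and 2029, 2068 and 1954 with #4. The member at chromosome 1, 158850773 to 158851274 had 108, 129 and 114 normalised reads in NTC, 458, 441 and 427 with #1 and 275, 194 and 239.9 with #4, where #4 was close to the minimum (-0.91 (SE 0.11, limma adjusted p = 2.82e-08)). Of the 5 open peaks of Pappa 4 were members, 3 of them outside the gene, where hairpin #1 was higher at each, and 1 inside, where hairpin #4 was (0.23 (SE 0.089, limma adjusted p = 0.033)). The tallest of the 4 was at chromosome 4, 65078313 to 65078814, with 338, 388 and 332 normalised reads in NTC, 1551, 1628 and 1542 with #1 and 1324, 1218 and 1187 with #4. Fgfr1, a fibroblast growth factor receptor gene, had neighbouring members of 122 to 153 normalised reads in NTC, 403 to 426 with #1 and 535 to 596 with #4 and 247 to 268 normalised reads in NTC, 599 to 642 with #1 and 473 to 620.3 with #4.

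Homeobox and other developmental factors are transcription factors of cell identity. Of their 819 open peaks 33 were members (4.03%), in 21 of 52 genes, and 211 were called higher and 114 lower with both hairpins. Sox5, Zfhx3, Foxp1 and Ets2 had 3 each, and Runx1, Runx2 and Prdm16 were among those with a pair. The Sox5 site at chromosome 6, 144609687 to 144610188 held 139.6, 145 and 162 normalised reads in NTC, 1020.4, 981 and 1033 with #1 and 735, 686 and 719.7 with #4, with #1 the higher hairpin (-0.50 (SE 0.075, limma adjusted p = 1.04e-06)). Runx1 had 300.3, 362 and 344 normalised reads in NTC, 1543, 1493 and 1534 with #1 and 1657, 1563 and 1618 with #4 at a site 8.82 kb outside the gene, and the hairpins were not called different (0.08 (SE 0.064, limma adjusted p = 0.318)). Among the Ets2 members, that at chromosome 16, 95667966 to 95668467 held 116, 119 and 136 normalised reads in NTC, 475, 414 and 374 with #1 and 684, 647 and 721 with #4, with hairpin #4 higher in every library (0.70 (SE 0.094, limma adjusted p = 1.12e-07)).

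In the TGF-beta and BMP pathway, which runs from ligands held by LTBP proteins through receptors to SMAD factors, 15 of 465 open peaks were members (3.23%), and 78 were called higher and 85 lower. Tgfbr3, given above, was the strongest. Ltbp2, a binding protein of the extracellular matrix, had 156, 136 and 168 normalised reads in NTC, 1132, 1050.5 and 1143 with #1 and 924, 950.2 and 833 with #4 at chromosome 12, 84794583 to 84795084, and Ltbp1, which holds latent TGF-beta, had 3 members with folds up to 5.98 with #1. Tgfbr2, the type II receptor, had a member 259 bp outside the gene with 195, 199 and 181 normalised reads in NTC, 631, 589 and 572 with #1 and 652, 759.7 and 661 with #4. Among SMADs, the inhibitory Smad6 had 3, the strongest with 259.9, 249.5 and 277 normalised reads in NTC, 1495, 1439.9 and 1573 with #1 and 1559.6, 1581 and 1443 with #4, while Smad3 had 1 just past the minimum with 219 to 236 normalised reads in NTC, 424 to 468 with #1 and 476 to 535 with #4, and Smad4 1 with 142 to 186 normalised reads in NTC, 427 to 515 with #1 and 527 to 574 with #4. The hairpins were not called different at Smad6 (0.02 (SE 0.063, limma adjusted p = 0.797)).

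Axon guidance genes, which also direct migration outside the nervous system, had 16 members in 575 open peaks (2.78%), with 123 called higher and 88 lower. Nrp1, a co-receptor for semaphorins and VEGF, had a pair, the stronger with 93.6, 94.5 and 112 normalised reads in NTC, 686, 678 and 695 with #1 and 604, 559 and 543 with #4. Flrt2, a ligand of Unc5 receptors, had 153 to 184 normalised reads in NTC, 895 to 1032 with #1 and 1033 to 1131 with #4, and Ephb3, an ephrin receptor gene, 123 to 145 normalised reads in NTC, 686 to 743 with #1 and 549 to 618 with #4. The hairpins differed at each of these 3, with #1 higher at Nrp1 (-0.27 (SE 0.088, limma adjusted p = 0.0119)) and Ephb3 (-0.29 (SE 0.084, limma adjusted p = 0.00486)) and #4 higher at Flrt2 (0.21 (SE 0.076, limma adjusted p = 0.023)).

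Keratin and desmosome genes had 3 members in 93 open peaks (3.23%): the Pkp1 and Krt18 gene-end peaks given above and a site 1.58 kb outside Jup, the plakoglobin gene. The Jup site held 88, 109 and 123 normalised reads in NTC, 349.7, 354 and 327 with #1 and 336, 348 and 298 with #4, with the hairpins overlapping. In this list 16 peaks were called higher and 14 lower with both hairpins. Of 179 open peaks of epithelial junction genes 2 were members, and 32 were called higher and 22 lower. The member in Patj, a polarity gene, had 251 to 301 normalised reads in NTC, 667 to 738 with #1 and 654 to 748 with #4.

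Mesenchymal genes had 6 members in 188 open peaks (3.19%), with 36 called higher and 33 lower. Pdgfrb and Twist2 had a pair each and Tcf4 and Thy1 1 each. The strongest were those of Tcf4, an E-protein factor, with 122 to 141 normalised reads in NTC, 440.1 to 516 with #1 and 578 to 596 with #4, and Twist2, with 104 to 124 normalised reads in NTC, 402 to 535 with #1 and 333 to 418 with #4. Among contractile genes 8 of 369 were members (2.17%), with 59 called higher and 70 lower. Acta2, the smooth muscle actin, had adjacent members within the gene, 317 and 1218 bp from its end, with 139, 117 and 141 normalised reads in NTC, 613, 668 and 622 with #1 and 717, 684 and 713 with #4 at the first and 180.0, 178 and 154 normalised reads in NTC, 798, 820.1 and 853 with #1 and 734, 774 and 700.3 with #4 at the other. Myh9, the non-muscle myosin, had 3, the strongest with 128 to 174 normalised reads in NTC, 761 to 813 with #1 and 693 to 738 with #4, and the tallest, at chromosome 15, 77815951 to 77816452, favoured hairpin #1 (-0.66 (SE 0.069, limma adjusted p = 7.03e-10)).

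Integrins had 5 members in 228 open peaks (2.19%), with 39 called higher and 54 lower with both hairpins. Of the 5, 3 were at Itgb3, the beta subunit of the vitronectin receptor. The Itgb3 site 3.47 kb outside the gene held 120.3, 107 and 132 normalised reads in NTC, 569.8, 574 and 560.0 with #1 and 516, 544 and 529 with #4, and the one 113 bp inside its end held 198, 254 and 188 normalised reads in NTC, 505, 561 and 540.2 with #1 and 495, 499 and 487 with #4. None of the 3 was called different between the hairpins. Collagens, laminins and other matrix genes had 13 in 625 (2.08%), with 102 called higher and 149 lower. Among the members was one of Hspg2, the perlecan gene, with 215, 211 and 229 normalised reads in NTC, 992, 1007 and 988 with #1 and 1265, 1344 and 1330.0 with #4 and #4 higher (0.40 (SE 0.065, limma adjusted p = 4.77e-06)). Matrix proteases had 4 in 298 (1.34%), with 69 called higher and 45 lower. The members were the Mmp2 site and 3 in Adam19, of which the strongest held 211 to 242 normalised reads in NTC, 901 to 976 with #1 and 702 to 796 with #4. Heparan and chondroitin sulfate genes had 5 in 423 (1.18%), with 73 called higher and 71 lower, the members including that of Gpc1, a glypican, with 92.4 to 106 normalised reads in NTC, 355 to 391 with #1 and 436 to 481 with #4, and Hs6st1, a sulfotransferase gene, with 197 to 223 normalised reads in NTC, 566 to 629.8 with #1 and 504 to 586 with #4 at a site 76 bp outside the gene.

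Tumour dormancy genes had 5 in 357 open peaks (1.40%), with 57 called higher and 62 lower. The members were at Gas6, Atf6, Sox9, Ddr2 and Tgfb2. Gas6, a ligand of the AXL receptor family, had the strongest of them, with 136, 119 and 110.4 normalised reads in NTC, 852, 818 and 792 with #1 and 726, 655 and 656 with #4, and Atf6, a stress factor of the endoplasmic reticulum, had 148 to 168 normalised reads in NTC, 565 to 598 with #1 and 694 to 743 with #4. AP-1 and immediate early genes had 2 in 228 (0.877%), near Jun and Fos, with 25 called higher and 55 lower. The Jun site held 200.2, 179 and 199 normalised reads in NTC, 654, 629 and 577 with #1 and 485, 369.6 and 425 with #4 and favoured hairpin #1 (-0.54 (SE 0.091, limma adjusted p = 6.74e-06)), and the Fos site had 105 to 125 normalised reads in NTC, 247 to 281 with #1 and 217 to 278 with #4. YAP and TEAD pathway genes had 4 in 427 (0.937%), with 59 called higher and 80 lower. The members were led by Vgll4, a TEAD co-repressor, with 140.4, 111 and 134 normalised reads in NTC, 1008, 992 and 1001 with #1 and 1001, 1083 and 1005 with #4. Cell cycle genes had 3 in 235 (1.28%), at E2f3, Cdc25a and Mcm3, with 22 called higher and 59 lower. Interferon and NF-kB genes had 3 in 210 (1.43%), at Traf1, Nfkb1 and Il6, with 27 called higher and 66 lower.

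Mediator subunit genes had 2 members in 204 open peaks (0.98%), with 21 called higher and 32 lower with both hairpins. The peak 17.2 kb from Cdk19, a kinase of the Mediator kinase module, held 417, 360.4 and 389 normalised reads in NTC, 1020.4, 1003 and 992 with #1 and 1557, 1504 and 1543 with #4, and hairpin #4 was higher (0.61 (SE 0.062, limma adjusted p = 3.79e-10)). That inside Med23, a tail module subunit, held 279, 284 and 246 normalised reads in NTC, 755, 664 and 747 with #1 and 657, 592 and 676 with #4.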

How the data were processed

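ATAC-seq values of 9 libraries were used. The deposited signal is the read count in each of a common set of 501-bp peaks after DESeq2 normalisation, as the authors' file name states. Tools named in the submitters' processing notes are BWA, Trim Galore, Subread, featureCounts and MACS2, with no version, and the build is given there as mm10 or GRCm38. Whether libraries were pooled to call peaks is not given. Coordinates follow the deposited peak names, which do not say if they start at 0. All values of a library are whole multiples of 1 step (within 0.001 of a read), which gave the reads per library.

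The rule for members uses the same deposited values, so folds over NTC carry no test. The hairpins were compared with each other, and peaks beside members with NTC, by limma 3.58.1 (R 4.3.3; lmFit, eBayes with trend) on log2 of the value plus 1. It ran in 1 fit over 9 libraries and 146729 peaks with a mean of at least 10 (5 removed), with Benjamini-Hochberg adjustment and a threshold of 0.05. On simulated data 50 peaks were changed at each size. There the contrast of #4 minus #1 called 18% of 1.25-fold, 58% of 1.5-fold, 94% of 2-fold and all 4-fold changes. It called 0.00273% of unchanged peaks. No other peaks of the 146728 tested were changed there, whereas 41.6% of real peaks were called. The adjusted threshold was therefore stricter in the simulation, and its shares do not carry over to the real fit.

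Gene positions came from RefSeq (GRCm38.p6), with 21631 protein-coding genes. Of 705 genes written in 19 lists 701 were found. The members and lists were chosen with earlier results of these data known. The naming rule took the 10 members with the highest smaller fold, the 8 with the highest NTC mean, the 5 highest and 5 lowest calls of #4 minus #1, the 8 strongest at gene ends, the 6 genes with the most members, the 5 longest runs, up to 3 per list and the 3 nearest to each minimum on each side. It took 1 peak per gene and left out predicted genes. Not all members so named are described. Further members of listed genes and the genes of the printed promoters were chosen after their values were seen. The sequences are those of promoters whose upstream bases lie outside annotated genes, a departure from the rule. Sequence under other members was not used here. Alternatives changed the minima, scaling, filter, pseudocount and distances, left out each library in turn, fitted the 6 shMed4 libraries alone and used the replicate number as a block. Centring by chromosome and by 10 Mb window was added after the data had been seen. Python 3.11.15, pandas 2.3.3, numpy 2.4.6, scipy 1.17.1, data.table (1.17.8) and matplotlib 3.10.9 were used.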

Additional observations from a re-analysis of the deposited data

Results flagged for a closer look

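These are the results in which the effects of the hairpins differed by limma (#4 minus #1, 3 libraries each). Among the 1907 members 400 (21%) were called higher with hairpin #4 and 568 (29.8%) higher with hairpin #1. Of all tested peaks, which include those below the NTC minimum, 20.4% and 21.2% were. Of the named members, the log2 difference was 0.20 at Golt1b, 0.16 at Ptpro, 0.12 near Sox2, 0.27 near Ncam1 and 0.14 in Erlin2, where #4 was higher. It was -0.22 in Rbms3, -0.18 in Dhcr7, -0.12 near Clic5, -0.22 near Tafa1 and -0.31 in Ext1, where #1 was higher. The members with the widest differences had 1.43 in Clnk, 1.33 in Gna14, 1.32 near Lima1, 1.20 in Tecta and 1.20 in Ctnna2, and -1.45 near Mllt3, -1.43 in Hipk2, -1.42 in Col4a3, -1.20 in Tafa5 and -1.20 near Mrpl52. The last 10 were named for their difference.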

How the results depend on the processing

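The number of members follows its minima: it was 3475 with an NTC minimum of 50, 789 with 200, 5490 with a fold minimum of 1.5 and 522 with 3. It was 1862 with equal library totals (1844 of the 1907 kept) and 2388 with size factors taken over gene-end peaks (1807 kept). That scaling raised the fold of each named member 1.073 to 1.084 times. Centring by 10 Mb window gave 1833 peaks (1615 kept). Leaving out each library in turn gave 1859 to 1952 members, 321 to 414 called higher with #4, 444 to 580 higher with #1 and 907 to 964 of the peaks beside members called higher with both. With equal totals the calls between hairpins were 452 and 486. Pairing was checked because groups share replicate numbers: libraries with the same number had correlations of their deviations of -0.01 to 0.07 over 9 pairs. Between libraries with different numbers the correlations were -0.10 to 0.04. Correlations this small cannot decide whether the numbers pair the libraries. With the replicate number as a block the calls were 421 higher with #4 and 586 with #1, and 990 peaks beside members. Within 5 kb 683 and within 50 kb 1256 peaks beside members were called. The share of members at gene ends was 3.15% within 0.5 kb (9.88% of open peaks) and 9.39% within 2 kb (19.6%). Of the recomputed differences between hairpins at named members 412 kept their side of the threshold, 30 lost the call and 6 gained it. No called difference changed direction, but 2 that were not called changed sign: Mmp2 (-0.03 without replicate 2 of #1) and Tgfbr3 (-0.04 without replicate 3 of #1 and without replicate 1 of #4). With the 6 shMed4 libraries alone the calls were 437 higher with #4 and 602 with #1. The edgeR and DESeq2 tests on recovered reads were not run: the deposited values are normalised signal, and the reads behind them were used here for depth alone. With 3 libraries a group and 44.8 to 98.9 M reads in peaks, 58% of simulated 1.5-fold differences were called, and the parts of depth and replicate spread in this were not tested. The simulation changed far fewer peaks than were called in the data, so its adjusted threshold was stricter.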

Other observations

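Not all members lay near a gene. Of the 1907, 193 had no protein-coding gene within 100 kb. At the 17 members whose promoter's upstream 250 bases lie outside annotated genes, the median was 10 CpG, and 1 held the AP-1 motif. The run of 3 members on chromosome 8, 28144843 to 28149735, had no assigned gene, with NTC means of 189 to 479.7 normalised reads and folds of 2.13 to 3.45. Other runs of 3 included those at Etv6, an ETS repressor gene, with folds of 2.22 to 3.94, and at Nrip1, a nuclear receptor corepressor gene, with folds of 2.15 to 3.14. Within single genes, Slc38a1, a glutamine transporter gene, had 4 members among 8 open peaks with folds up to 9.44, and Tdp1, a DNA repair gene, had 4 among 14 with folds up to 8.95. These genes were picked after their values were seen.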
